A study of Mus musculus with 12 samples.

Results

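The genes described here are 9 transcription factors of microglia and tissue macrophages: Sall1, Sall3, Mef2a, Mef2c, Maf, Irf8, Spi1, Runx1 and Bhlhe41. They were chosen as a list of symbols, and all 9 were found among the 31054 genes that the count tables of the treated mice list. Their unique molecular identifiers (UMIs, counts of captured transcripts) were summed per library over the barcodes in which 200 or more genes were found and mitochondrial UMIs made up no more than 10%, and are given as CPM, the UMIs of a gene relative to all UMIs of the library on the usual scale, in all 12 libraries. Cells had been sorted from the brains of 4 busulfan-conditioned C57BL/6J mice as CD45+CD11b+CX3CR1+ cells. These mice had received lineage-negative bone marrow progenitors of male donors, transduced with the lentiviral vector LVV.GFP, by vein (i.v.) or into the cerebral ventricle (i.c.v.), with 1 female and 1 male recipient per route. The mice are called IV-F, IV-M, ICV-F and ICV-M after route and sex. GFP+ microglia-like cells (MLCs) and GFP- endogenous microglia of each mouse made 1 library each, so each sort was measured in 4 libraries. All of these mice were also given untransduced bone marrow by vein, so GFP- cells can include cells of donor origin. The labels give an age of 22 to 28 weeks and the study 12 to 13 months after dosing, and these were not reconciled here. The other 4 libraries were labelled as microglia, astrocytes, neurons and blood mononuclear cells (PBMCs) from a treatment-naive C57BL/6J source, aged 8 to 12 weeks by the labels. There was 1 library of each and thus no replicate error. The study names 1 naive animal, 12 weeks old, as their source, so by its account these 4 libraries share an animal.

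The filter kept 2266 to 3536 cells per GFP+ library and 2675 to 4555 per GFP- library, with median depths of 1058 to 3499 and 842 to 1034 UMIs per cell. GFP+ cells were thus deeper, and the GFP+ library of IV-F was the deepest. At least 3 of 8 microglial markers were found in 59.3% to 75.6% of GFP+ cells and 92.2% to 96.0% of GFP- cells, while at least 3 of 7 markers of CNS-associated macrophages (CAMs) were found in 21.4% to 29.6% and 3.21% to 9.12%. At least 3 monocyte markers were found in 1.28% and 1.56% of the cells of the i.v. GFP+ libraries and in 0 cells of the i.c.v. GFP+ libraries. The part of CAMs and monocytes in the values below was not tested. Libraries shared at most 8 barcodes. The naive library labelled neurons did not hold its labelled cells, since at least 3 oligodendrocyte markers were found in 95.5% of its 575 cells and at least 3 neuronal markers in 0.174%, and it is called the neuron-labelled library below. The summed counts cannot tell fewer cells that transcribe a gene from less RNA per cell.

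Microglia arise from yolk sac progenitors and macrophages that replace them after conditioning arise from bone marrow, and both depend on a shared set of transcription factors. Spi1 encodes PU.1, the pioneer factor of the myeloid lineage, which binds myeloid enhancers together with IRF8, RUNX1 and the MEF2 factors. Sall1 and Sall3 encode zinc finger repressors of the spalt family, and SALL1 is the best known factor that is specific to microglia among macrophages and holds them in their homeostatic state. MAF is a bZIP factor of mature macrophages, and BHLHE41 is a basic helix-loop-helix repressor that binds E-boxes.

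RefSeq promoters on GRCm38.p6 were found for 6 of the 9 genes, with 12 transcription starts. The 250 bases upstream of a start are shown for Sall1, the microglial factor whose level differed most firmly between the sorts, and for Mef2a and Bhlhe41, which hold a searched motif. Capitals mark a match, which is the PU.1 motif GAGGAAG in Mef2a and the E-box CACGTG, the site type that BHLHE41 itself binds, in Bhlhe41. The sequences run 5′ to 3′ on the minus strand, from chr8:89044163-89044412 for Sall1, chr7:67372859-67373108 for Mef2a and chr6:145865421-145865670 for Bhlhe41.
Sall1: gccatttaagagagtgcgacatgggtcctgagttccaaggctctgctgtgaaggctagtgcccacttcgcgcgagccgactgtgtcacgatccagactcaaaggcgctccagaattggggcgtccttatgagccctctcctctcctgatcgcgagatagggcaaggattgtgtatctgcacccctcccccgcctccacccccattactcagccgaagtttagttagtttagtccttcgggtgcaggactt
Mef2a: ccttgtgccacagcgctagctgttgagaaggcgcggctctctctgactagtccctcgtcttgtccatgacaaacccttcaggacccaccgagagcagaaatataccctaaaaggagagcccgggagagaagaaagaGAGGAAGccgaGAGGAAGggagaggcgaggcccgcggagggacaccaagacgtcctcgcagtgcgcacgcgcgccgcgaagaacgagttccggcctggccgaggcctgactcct
Bhlhe41: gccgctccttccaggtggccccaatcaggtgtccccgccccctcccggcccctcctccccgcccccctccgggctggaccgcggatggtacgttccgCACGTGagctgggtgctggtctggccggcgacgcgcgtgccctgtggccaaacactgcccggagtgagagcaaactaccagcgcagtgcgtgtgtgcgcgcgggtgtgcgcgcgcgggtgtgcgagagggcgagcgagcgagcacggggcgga
Both strands were searched. GAGGAAG was held by 2 of the 12 starts (Mef2a at 2 places, and 1 start of Mef2c), and by 10.6% of all 32851 promoters of this length. CACGTG was held by 2 of the 12 (Bhlhe41 and 1 start of Runx1), and by 6.02% of all. The other letters searched, with no match in these 12 windows, were those of a composite of an ETS core and an IRF half-site (2.3% of all promoters), TATTTAT (MEF2, 5.17%), TGTGGT (RUNX, 14%) and TGCTGAC (a MAF half-site, 3.81%). The motifs do not overlap each other in the windows shown, and a match describes the letters and not binding.

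On GRCm38, Sall1 lies at chr8:89027235-89044162 and Sall3 at chr18:80966376-80986771, both on the minus strand. Mef2a lies at chr7:67231163-67372858 on the minus strand and Mef2c at chr13:83504034-83667080 on the plus strand. Maf lies at chr8:115682942-115707794 (minus), Irf8 at chr8:120736358-120756694 (plus), Spi1 at chr2:91082390-91115756 (plus), Runx1 at chr16:92601466-92826149 (minus) and Bhlhe41 at chr6:145858243-145865558 (minus). The coordinates are those of the whole gene in GENCODE vM21, with exons, introns and UTRs, and all 9 are protein coding. For Bhlhe41, the RefSeq start used for the promoter lies inside these coordinates. Part of the window shown for it (chr6:145865421-145865670) thus falls within the GENCODE gene. Annotated genes overlap Irf8 (Gm20388) and Mef2a (Gm44667 and Gm44668) on the same strand, and Lysmd4, Gm15655, Gm26626 and Gm43909 overlap Mef2a, Maf, Runx1 and Bhlhe41 on the other strand, so reads of the shared stretches are uncertain.

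MLCs held far less Sall1 and almost no Sall3. Sall1 reached 11.6 CPM in the GFP+ library of IV-F, 5.17 in that of IV-M, 24.0 in that of ICV-F and 16.0 in that of ICV-M. In the GFP- libraries of the same mice, in the same order, it reached 234, 295, 158 and 241 CPM. The groups did not overlap, and all 4 GFP+ libraries lay below every GFP- library by a wide gap. The means were 14.2 ± 7.91 CPM in GFP+ and 232 ± 56.2 CPM in GFP- (SD, n = 4 libraries each). The log2 fold change of GFP+ over GFP- was -3.76 (SE 0.375, 95% interval -4.61 to -2.92, adjusted p = 0.000405, edgeR, adjusted over all genes tested by Benjamini and Hochberg's method).

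Within a mouse, the Sall1 level of GFP+ cells was 4.96% of that of GFP- cells in IV-F, 1.75% in IV-M, 15.2% in ICV-F and 6.66% in ICV-M. The exact 95% intervals of these ratios, which cover counting error only, were 4.24% to 5.79%, 1.30% to 2.32%, 13.1% to 17.6% and 5.67% to 7.78%. The intervals of IV-F and ICV-M overlap, while that of IV-M lies below and that of ICV-F above all others. The spread between mice of 1 route and sex was not measured.

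Sall3 was counted 47 times in the GFP+ library of IV-F, once in those of IV-M and ICV-F, and 2 times in that of ICV-M. In CPM these are 2.85, 0.101, 0.113 and 0.183. The GFP- libraries of these mice held 388, 586, 426 and 647 Sall3 UMIs, or 78.1, 89.8, 52.6 and 83.2 CPM. Of the GFP+ libraries, that of IV-F stood apart from the other 3, and all 4 lay under every GFP- library. The log2 fold change was -5.91 (SE 0.661, interval -7.40 to -4.43, adjusted p = 0.000649, edgeR). Without the GFP+ library of IV-F it was -8.72 (adjusted p = 8.67e-06), a value that rests on 4 GFP+ UMIs in all. The ratio of the GFP+ to the GFP- level was 0.113% in IV-M (exact interval 0.00285% to 0.631%), 0.215% in ICV-F (0.00544% to 1.21%) and 0.220% in ICV-M (0.0266% to 0.80%), against 3.65% (2.63% to 4.94%) in IV-F.

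The factors of the spalt family thus did not keep their proportion. GFP- libraries held 2.90 to 3.28 Sall1 UMIs per Sall3 UMI. The GFP+ libraries held 4.09 in IV-F, and 51, 212 and 87.5 in IV-M, ICV-F and ICV-M. The GFP+ library of IV-F was thus the only one whose proportion lay near that of the GFP- libraries. These proportions set libraries side by side and not the genes, since 3′ capture can differ between genes.

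**Figure D1:**
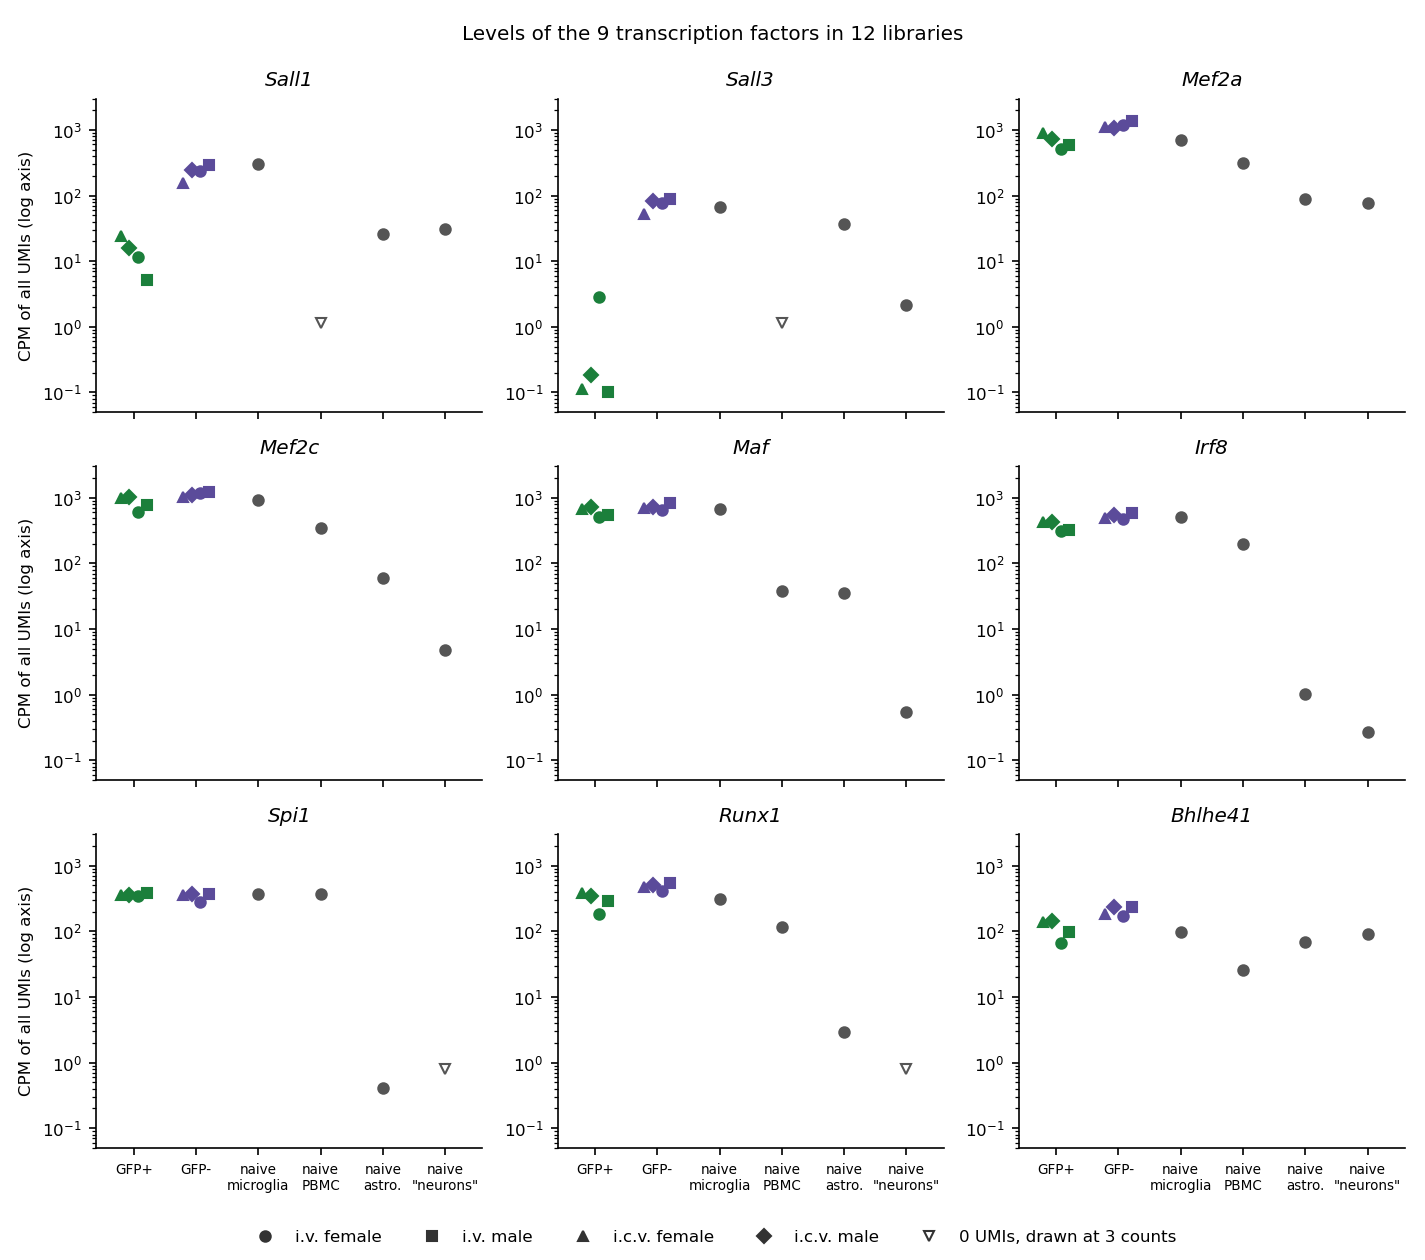
Level of each of the 9 genes in CPM of all UMIs, on a log axis, in the 12 libraries: green GFP+ and purple GFP- libraries of 4 mice, grey naive libraries (1 each), with the symbol giving route and sex and open triangles marking 0 UMIs, drawn at the level of 3 counts. Sall1 lies at 5.17 to 24.0 CPM in GFP+ and 158 to 295 in GFP- libraries, while Spi1 lies at 349 to 384 and 282 to 373.

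In the 2 female recipients, male donors allowed cells to be classed by genotype. The Xist background given below means that a class can hold cells of the other origin. A cell with a UMI of a Y-linked gene and none of Xist was taken for donor genotype and the reverse for recipient genotype, and the rest could not be placed. As a background of this rule, Xist UMIs were found in 0% and 0.0283% of the cells of the male GFP+ libraries (IV-M and ICV-M) and in 0.461% and 3.11% of those of the male GFP- libraries. The last value is above the shares of recipient genotype in the GFP+ libraries given next, and its source was not tested. Of the 3344 cells of the GFP+ library of IV-F, 88 (2.63%) were classed as recipient genotype, and these held 61 of its 192 Sall1 UMIs and 24 of its 47 Sall3 UMIs. Their Sall1 level was 124 CPM (exact 95% interval 94.8 to 159) and their Sall3 level 48.8 CPM (31.3 to 72.6). The 1670 cells of donor genotype in the same library held Sall1 at 6.65 CPM (5.20 to 8.37) and Sall3 at 0.0923 CPM (0.00234 to 0.514, 1 UMI). Recipient-genotype cells of the GFP- library of this mouse held 251 CPM Sall1 (236 to 267) and 87.4 CPM Sall3 (78.7 to 96.9) in 2338 cells. The recipient-genotype cells of the GFP+ library thus lay under these for both genes and far above the donor-genotype cells.

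In the GFP+ library of ICV-F, 1294 donor-genotype cells held 147 Sall1 UMIs, 23.2 CPM (19.6 to 27.3), and 0 Sall3 UMIs, which allows a level of up to 0.473 CPM. Only 27 of its cells (1.03%) were classed as recipient genotype, with 1 Sall1 and 0 Sall3 UMIs. Cells of donor genotype thus held Sall1 in both females, with at most 1 Sall3 UMI. With 1 female per route, their levels of 6.65 and 23.2 CPM are values of 2 mice and no comparison of routes. The GFP- libraries of the females held few donor-genotype cells. The 40 of IV-F held 3 Sall1 UMIs (12.0 CPM, 2.47 to 35.1) and 0 Sall3 UMIs, and the 47 of ICV-F held 6 Sall1 UMIs (46.7 CPM, 17.1 to 102) and 1 Sall3 UMI. After Xist-positive cells were left out of the female GFP+ libraries and Y-positive cells out of the female GFP- libraries, an alternative chosen after the data were seen, the log2 fold change was -3.89 for Sall1 and -6.90 for Sall3 (adjusted p = 0.00055 and 5.64e-05, edgeR).

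Mef2a and Maf went opposite ways by genotype in the GFP+ libraries of the 2 females, but the recipient-genotype cells of these libraries were unlike. Their P2ry12 level was 1164 CPM in IV-F and 165 CPM in ICV-F, against 278 and 543 CPM in donor-genotype cells. The intervals cover counting error only, in 1 mouse each, and what sets the directions apart was not tested. In the GFP+ library of ICV-F, donor-genotype cells held more Maf (620 CPM, 601 to 640, against 202, 139 to 284), Mef2c (929, 905 to 953, against 374, 286 to 480) and Mef2a (797, 776 to 820, against 368, 280 to 473) than the 27 recipient-genotype cells. In that of IV-F, donor-genotype cells held less Maf (488 CPM, 475 to 501, against 569, 504 to 640) and Mef2a (479, 466 to 492, against 583, 518 to 655), and Mef2c overlapped (584, 570 to 599, and 587, 522 to 659). Irf8 was at 399 CPM (383 to 415) in donor-genotype and 257 (185 to 348) in recipient-genotype cells of ICV-F, and at 300 (289 to 310) and 341 (292 to 397) in IV-F, where the intervals overlap. Runx1 overlapped in ICV-F (344, 330 to 359, and 312, 233 to 411) and was lower in donor-genotype cells of IV-F (175, 167 to 183, against 256, 213 to 305). Bhlhe41 was at 64.2 CPM (59.5 to 69.1) in donor-genotype and 130 CPM (100.2 to 166) in recipient-genotype cells of the GFP+ library of IV-F. In ICV-F these were 134 CPM (125 to 143) and 147 CPM (94.2 to 219), whose intervals overlap. Spi1 was at 361 CPM (350 to 372) and 278 CPM (234 to 329) in IV-F and 384 CPM (369 to 399) and 447 CPM (351 to 562) in ICV-F.

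**Figure D2:**
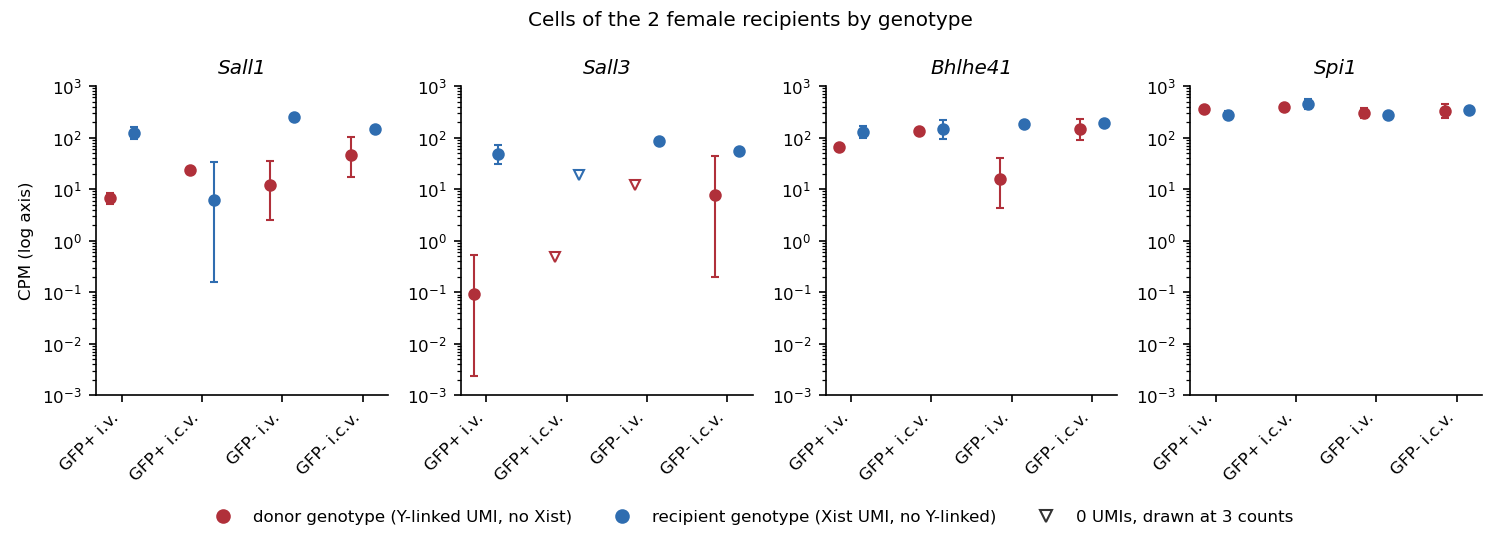
Level in CPM (log axis) of Sall1, Sall3, Bhlhe41 and Spi1 in cells of donor (red) and recipient (blue) genotype in the 4 libraries of the 2 female recipients. Bars are exact 95% Poisson intervals and open triangles are 0 UMIs drawn at 3 counts. Donor-genotype cells of the GFP+ libraries hold Sall1 at 6.65 and 23.2 CPM and Sall3 at 1 and 0 UMIs.

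Sall1 UMIs in the GFP+ sort lay in cells that also held more of the homeostatic genes of microglia. A Sall1 UMI was found in 117, 37, 157 and 107 GFP+ cells of IV-F, IV-M, ICV-F and ICV-M. P2ry12, the purinergic receptor that guides microglial processes, was at 1415, 933, 958 and 1090.2 CPM in these cells and at 268, 258, 453 and 421 CPM in the GFP+ cells without Sall1. It was thus 2.12-fold to 5.28-fold higher beside Sall1. Sparc, a matrix protein, was 3.59-fold to 9.77-fold higher, and the fructose transporter gene Slc2a5 was 6.22-fold to 28.9-fold higher. All 15 homeostatic genes of the fixed list were higher in the Sall1-positive cells in all 4 libraries, 7 of them at least 2-fold in each. Ms4a7, a gene of CAMs and of macrophages derived from bone marrow, was at 234, 231, 83.3 and 84.2 CPM with Sall1 and 947, 748, 749 and 955 CPM without. The same directions were seen in the GFP- libraries, so they are not particular to the GFP+ sort. There P2ry12 was 1.53-fold to 2.17-fold, Sparc 1.57-fold to 2.30-fold and Slc2a5 1.55-fold to 2.19-fold as high in cells with Sall1. Ms4a7 was 0.0745-fold to 0.373-fold as high.

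Sall3 lay with Sall1 in IV-F, at 27.2 CPM (20 UMIs) in cells with Sall1 and 1.71 CPM (27 UMIs) without, while the other 3 GFP+ libraries held 1 or 2 Sall3 UMIs each. Irf8 was 1.01-fold to 1.55-fold and Runx1 0.767-fold to 1.14-fold as high in cells with Sall1 as in cells without. Spi1 was 0.74-fold to 1.08-fold and Mef2c 0.907-fold to 1.35-fold as high in cells with Sall1 as in cells without, and Maf 0.647-fold to 1.20-fold. Bhlhe41 was 1.27-fold to 2.64-fold as high, and Mef2a ran from 0.853-fold to 1.51-fold, with the higher values in both i.v. libraries. Cells with a Sall1 UMI were deeper, with medians of 4054 to 6357 UMIs against 1022 to 3434 UMIs. Among cells with at least 1000 UMIs alone, all 15 homeostatic genes were again higher in the 4 libraries, and 5 of them at least 2-fold in each. Y-linked UMIs were found in 63.1% to 67.6% of the Sall1-positive GFP+ cells of 3 libraries, and Xist in 0 to 1 cells. In IV-F they were found in 45.3%, and Xist in 28.2%. These are descriptions without a test, because Sall1 chose the cells.

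**Figure D3:**
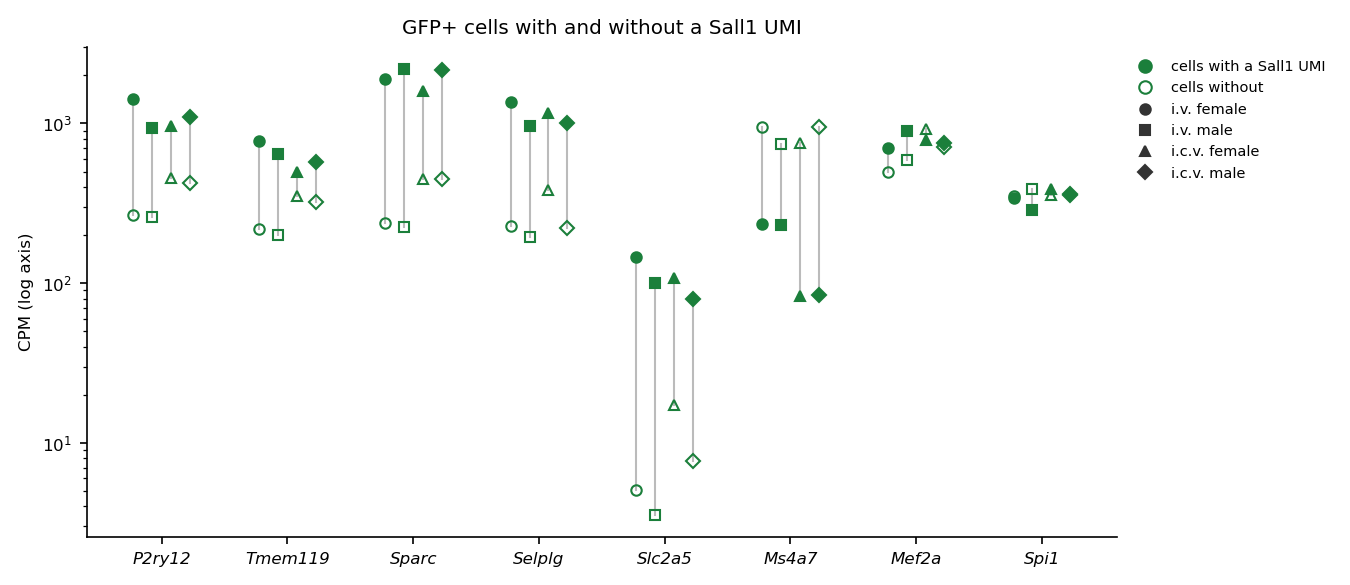
Level in CPM (log axis) of 8 genes in GFP+ cells with a Sall1 UMI (filled) and without (open), joined by a line for each of the 4 GFP+ libraries, whose symbol gives route and sex. P2ry12, Tmem119, Sparc, Selplg and Slc2a5 lie higher and Ms4a7 lower in cells with Sall1 in all 4 libraries, while Mef2a and Spi1 move both ways.

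Of the 9 genes, 3 passed the test between the sorts, all of them lower in GFP+ cells (Sall1, Sall3 and Mef2a), where 32.5% of all 11756 genes tested were called, 15.9% lower and 16.6% higher. The median log2 fold change was -0.42 over the 9 genes and 0.01 over all genes. Calls depend on the scaling. After TMM normalization 1951 genes were called higher and 1869 lower, and with library totals alone 770 and 3790, because that scaling moved the median of all genes to -0.27. With library totals, Bhlhe41, Irf8 and Runx1 were called lower as well, which made 6 of the 9. On CPM by library totals the groups did not overlap for 7 of the 9 genes, all lower in GFP+, where 32.6% of all genes were so separated and 6.28% were so with GFP+ higher. On TMM-scaled CPM they did not overlap for Sall1, Sall3 and Mef2a, lower (17.9% of all genes), and for Spi1, higher (16.8%). Folds below are on the TMM scale.

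Mef2a encodes 1 of the MEF2 factors that keep microglia in their resting state. It reached 505, 597, 909 and 715 CPM in the GFP+ libraries of IV-F, IV-M, ICV-F and ICV-M, and 1176, 1354, 1103 and 1087 CPM in the GFP- libraries. The groups did not overlap, and both i.v. GFP+ libraries were the lowest. The log2 fold change was -0.52 (SE 0.156, interval -0.87 to -0.17, adjusted p = 0.0324, edgeR). It lost the call when any 1 of 7 libraries was left out, with adjusted p of 0.0537 to 0.0921 in these, and kept it without the GFP+ library of ICV-F (0.0116). Its relative Mef2c was at 610 to 1024 CPM in GFP+ and 1044 to 1213 CPM in GFP-, with a log2 fold change of -0.13 (interval -0.47 to 0.21, adjusted p = 0.522, edgeR).

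Spi1 was at 349, 384, 360 and 360 CPM in the GFP+ libraries, in the same order of mice, and at 282, 364, 356 and 373 CPM in the GFP- libraries. The groups overlapped on this scale, with the GFP- library of IV-F the lowest of the 8. The log2 fold change was 0.36 (interval 0.07 to 0.65, adjusted p = 0.0581, edgeR) after TMM and 0.08 with library totals. DESeq2 called it higher (adjusted p = 0.025) and Bhlhe41 lower (adjusted p = 0.0255).

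Bhlhe41 was at 67.4, 97.9, 139 and 143 CPM in the GFP+ libraries and 169, 238, 183 and 231 CPM in the GFP- libraries. The groups did not overlap on this scale, and the i.v. GFP+ libraries were again the lowest. The log2 fold change was -0.60 (interval -1.08 to -0.12, adjusted p = 0.056, edgeR), and with the mouse as a block it was called lower at -0.64 (adjusted p = 0.0267). Runx1, needed for definitive hematopoiesis, was at 181 to 388 CPM in GFP+ and 417 to 545 CPM in GFP-, a log2 fold change of -0.42 (interval -0.86 to 0.03, adjusted p = 0.133). Irf8 was at 308 to 433 CPM and 480 to 578 CPM (-0.21, interval -0.50 to 0.07, adjusted p = 0.215). Maf was at 517 to 733 CPM and 644 to 839 CPM (0.05, interval -0.25 to 0.34, adjusted p = 0.814), and its sign turned with library totals (-0.23). Without the 15 to 119 cells per library that held at least 3 markers of a type other than microglia, CAMs and monocytes, the log2 fold changes were -3.78 for Sall1, -5.94 for Sall3, -0.52 for Mef2a and -0.61 for Bhlhe41, all 4 called lower (adjusted p = 0.00016, 0.000258, 0.0212 and 0.0362). All adjusted p are from edgeR, and the intervals for Runx1, Irf8 and Maf leave room for changes of either sign.

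For 5 of the 7 genes other than Sall1 and Sall3 the sign of the difference turned with the depth of the cells summed. Cells with at least 1000 UMIs and cells with fewer were summed apart, an alternative chosen after the data were seen. Spi1 was called higher in GFP+ among the deeper cells (log2 fold change 0.39, adjusted p = 0.0299, edgeR) and lower among the shallower cells (-0.83, adjusted p = 0.0117). Mef2a was called lower among the deeper cells (-0.64, adjusted p = 0.0101), and its value turned to 0.34 among the shallower cells (adjusted p = 0.182). Runx1 went from -0.54 (adjusted p = 0.042) to 0.40 (adjusted p = 0.165), Mef2c from -0.20 to 0.48, Irf8 from -0.24 to 0.16 and Maf from 0.03 to 0.37, with no call for Mef2c, Irf8 or Maf. Bhlhe41 was lower at both depths without a call (-0.58 and -0.45). Sall1 (-3.69 and -3.47) and Sall3 (-5.89 and -5.74) were called lower in both. Deeper cells were 2561 of 3344, 1393 of 2266, 1374 of 2621 and 1876 of 3536 in the GFP+ libraries of IV-F, IV-M, ICV-F and ICV-M, and 1412 of 2675, 1810 of 4555, 1953 of 4355 and 1917 of 4087 in the GFP- libraries. A test of the difference between the depths was not made.

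**Figure D4:**
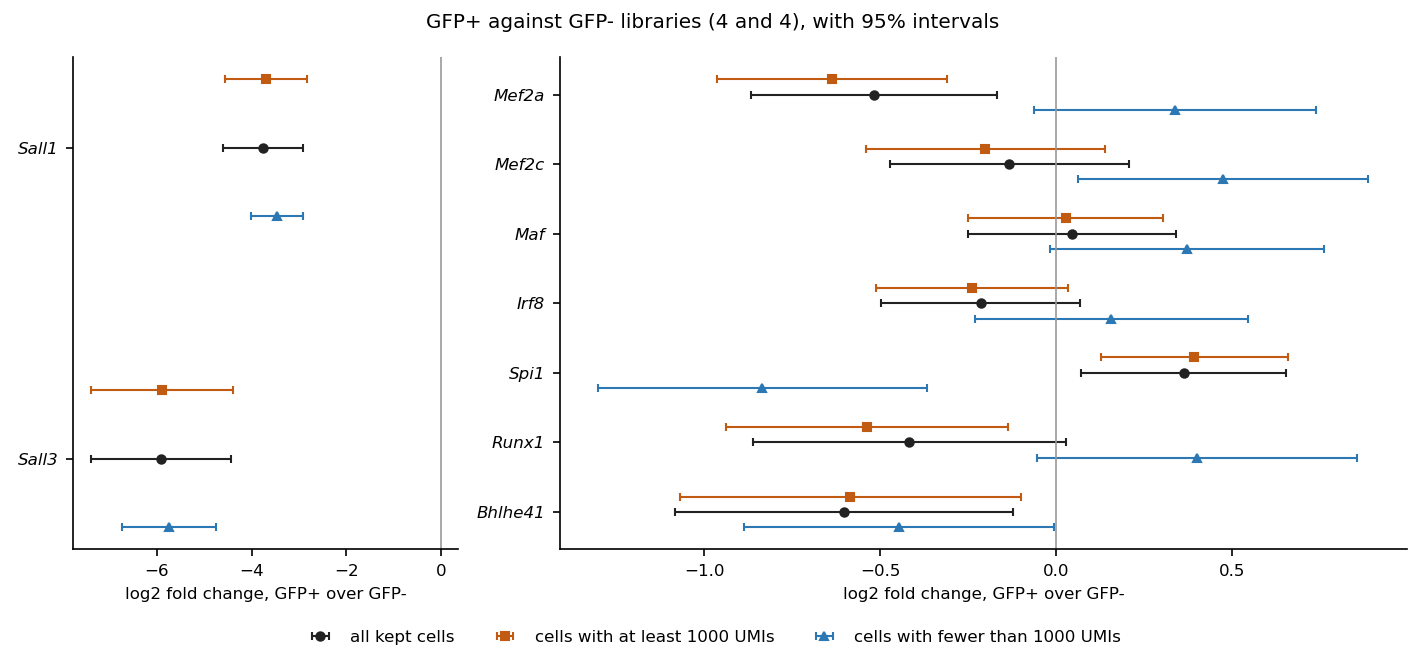
Log2 fold change of GFP+ over GFP- libraries (4 and 4) with 95% intervals for the 9 genes, from edgeR on all kept cells (black circles), on cells with at least 1000 UMIs (orange squares) and on cells with fewer (blue triangles). Sall1 and Sall3 lie at -3.47 to -5.91 in all 3 sets, while Spi1 lies at 0.39 in deeper and -0.83 in shallower cells.

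The share of cells with a transcript was compared after an equal number of UMIs had been drawn from every cell. At 500 UMIs, which no treated cell fell short of, Sall1 was found in 0.897%, 0.485%, 1.98% and 0.905% of GFP+ cells of IV-F, IV-M, ICV-F and ICV-M, and in 12.7%, 16.5%, 11.1% and 15.05% of their GFP- cells. Sall3 was found in 0.239% of the GFP+ cells of IV-F and in 0 cells of the other 3 GFP+ libraries, which allows up to 0.0848% to 0.132%, and in 3.42% to 4.67% of GFP- cells. Bhlhe41 was found in 4.04% to 8.06% and 9.31% to 12.1%. For these 3 genes the groups did not overlap, where 12.3% of all genes were lower in GFP+ in that way and 5.06% higher. The exact two-sided permutation test over libraries gave an unadjusted p = 0.0286 for each, the smallest that 4 against 4 libraries allow. Adjusted over the 9 genes tested, the p of this permutation test was 0.0857 for each. None of these 3 genes thus passed an adjusted p under 0.05 at this depth. The other 6 genes overlapped between the groups, with Mef2a at 31.7% to 51.7% of GFP+ and 44.8% to 50.4% of GFP- cells.

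At 1000 UMIs, which leaves out shallower cells, 7 of the 9 genes were separate and lower in GFP+, where 23.4% of all genes were and 7.91% were higher. Mef2a was then found in 40.4% to 56.8% of GFP+ and 67.1% to 75.2% of GFP- cells, Irf8 in 26.7% to 34.5% and 38.8% to 43.6%, and Runx1 in 16.8% to 29.5% and 34.1% to 44.4%. Each of the 7 had an unadjusted p = 0.0286 from the exact permutation test, again the smallest possible, and an adjusted p = 0.0367 over the 9 genes. Maf (40.3% to 50.6% and 46.0% to 51.1%) and Spi1 (25.3% to 26.8% and 19.9% to 26.3%) overlapped. The share that free RNA gives in these libraries was not measured.

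**Figure D5:**
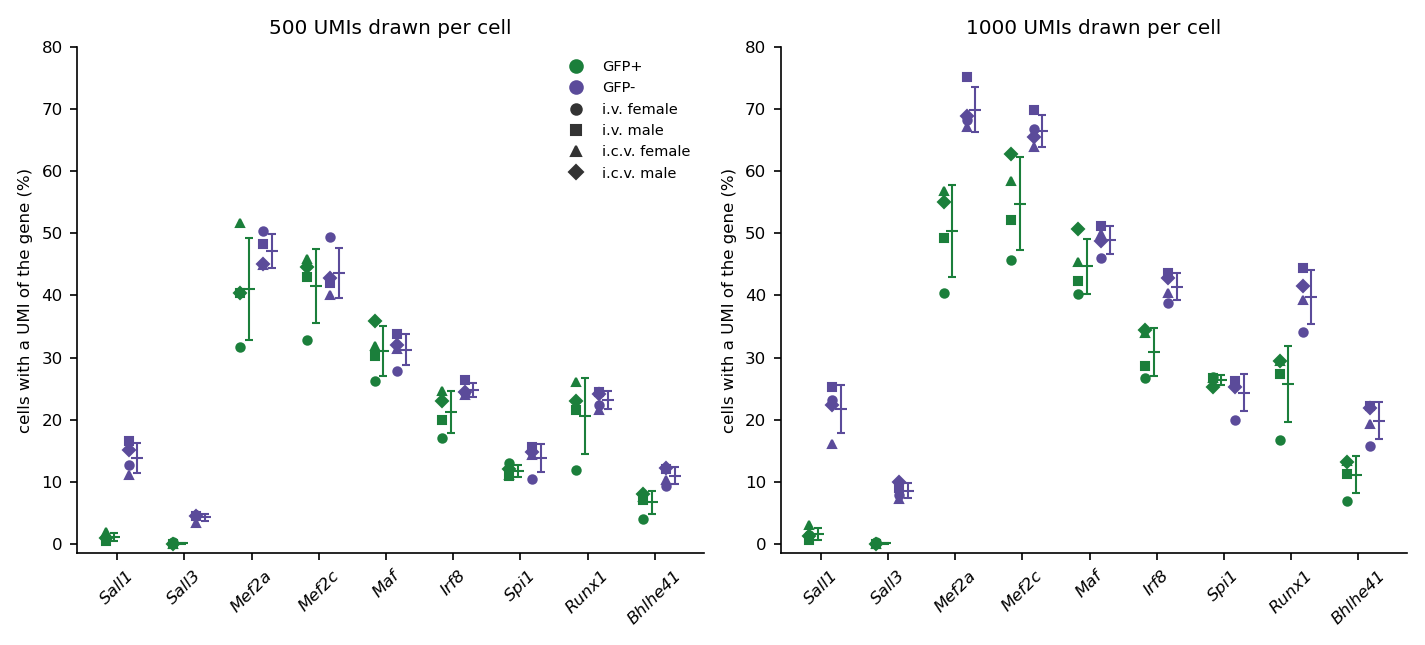
Share of cells with a UMI of each gene after 500 (left) or 1000 (right) UMIs had been drawn from every cell, in percent, for 4 GFP+ (green) and 4 GFP- (purple) libraries, with mean and SD beside the points. Sall1 lies at 0.485% to 1.98% in GFP+ and 11.1% to 16.5% in GFP- at 500 UMIs, and Mef2a overlaps at 500 but not at 1000 UMIs.

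None of the 9 genes was called between routes in GFP+ cells, where 348 of 12540 genes were (2.78%, with 2.56% higher and 0.215% lower after i.v. dosing). Sall1 was lower after i.v. dosing by a log2 fold change of -1.10 (interval -1.92 to -0.28, unadjusted p = 0.0146, adjusted p = 0.174, edgeR, 2 libraries per route), and DESeq2 called it at -1.11 (adjusted p = 0.0114). Bhlhe41 (-0.67), Mef2a (-0.45), Mef2c (-0.44) and Irf8 (-0.33) were also at an unadjusted p under 0.05 and lower after i.v. dosing, with adjusted p of 0.18 to 0.282. Sall3 was at 3.49 (interval 0.59 to 6.38, adjusted p = 0.219), a value set by the GFP+ library of IV-F, since without it the value was -0.42. Spi1 was at 0.14 (interval -0.20 to 0.48). The markers of blood cells in the GFP+ libraries moved with the route as well. The 8 monocyte markers summed to 436 and 361 CPM in the GFP+ libraries of IV-F and IV-M and to 2.49 and 3.58 CPM in those of ICV-F and ICV-M. The 7 dendritic cell markers summed to 198 and 305 CPM against 9.96 and 41.2 CPM, and the 9 neutrophil markers to 1627 and 3265 CPM against 1.02 and 0.825 CPM. In the GFP- libraries neutrophil markers went the other way, at 255 and 57.2 CPM after i.v. and 5962 and 979 CPM after i.c.v. dosing. Monocyte markers were there at 69.4 and 30.2 CPM against 156 and 54.8 CPM, and dendritic cell markers at 80.7 and 40.5 CPM against 40.8 and 66.3 CPM. Of the monocyte markers, Plac8 and Chil3 were at 0 UMIs in both i.c.v. GFP+ libraries. The part of these markers in the result was not tested.

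Within GFP- cells no gene of the 12540 was called between routes by edgeR, with 1063 genes at an unadjusted p under 0.05, while DESeq2 called 71, none of them among the 9. The 9 genes lay between -0.28 (Spi1) and 0.30 (Sall1), with an interval of -0.43 to 1.03 for Sall1. Whether the sort difference depended on route was tested as an interaction, which called none of the 9 genes and 240 of 12540 in all (1.91%, 1.8% positive and 0.112% negative), or 678 with the mouse as a block. The Sall1 difference between the sorts was larger after i.v. dosing by -1.40 on the log2 scale (interval -2.50 to -0.30, adjusted p = 0.182, edgeR; DESeq2 0.0234).

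Female and male recipients did not differ by a call in any of the 9 genes in either sort, where edgeR called 0 and 4 of 12540 genes (0% and 0.0319%), with 455 and 310 at an unadjusted p under 0.05, and DESeq2 called 3 and 7. Sall3 had the largest value, 3.45 higher in females within GFP+ (interval 0.46 to 6.44, adjusted p = 0.966), which rests on the library of IV-F. The other 8 genes lay between -0.28 and 0.68 within GFP+ cells.

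The naive libraries place these levels among other cells, as values without replicate error. Naive microglia held Sall1 at 299 CPM (exact 95% counting interval 265 to 335) and Sall3 at 66.8 CPM (51.7 to 85.0), next to the GFP- libraries for both. Maf was at 664, Irf8 at 503 and Spi1 at 364 CPM, within the range of the GFP- libraries. Mef2a was at 690, Mef2c at 933, Runx1 at 309 and Bhlhe41 at 96.2 CPM, and these 4 lay under every GFP- library. This library was the shallowest, with a median of 425 UMIs per cell, and its strictly filtered cells (at least 500 genes, at most 5% mitochondrial UMIs) held Sall1 at 180 CPM. The filter kept 1274 of its 2500 barcodes. The 9 neutrophil markers summed to 9229 CPM in it, against 57.2 to 5962 CPM in the GFP- libraries. Only 1 of its kept cells held at least 3 of these markers. The part of depth and of such RNA in the levels of naive microglia was not tested.

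PBMCs held 0 Sall1 and 0 Sall3 UMIs among 2630848, which allows up to 1.14 CPM of each. Spi1 was at 373 CPM in PBMCs, as in microglia, while Maf was at 38.4, Mef2a at 310, Mef2c at 345, Irf8 at 200, Runx1 at 114 and Bhlhe41 at 25.8 CPM. The 105 PBMCs with at least 3 markers of monocytes and of no other list held Spi1 at 603 CPM (552 to 658), Mef2a at 436 (393 to 483), Mef2c at 251 (218 to 287), Maf at 51.8 (37.7 to 69.6) and Bhlhe41 in 1 UMI. The 85 such B cells held Mef2c at 771 CPM (697 to 849), Irf8 at 280 (236 to 329), Spi1 at 89.4 (65.7 to 119), Bhlhe41 at 74.2 (52.8 to 101) and Maf at 7.61 (2.07 to 19.5). Monocytes thus held more Spi1 and less Maf than any microglial library, and Mef2c, a factor of B cell maturation too, was higher in B cells than in monocytes.

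Outside the myeloid lineage the 9 genes parted. Naive astrocytes held 123 Sall1 UMIs (25.6 CPM) and 179 Sall3 UMIs (37.3 CPM), a proportion turned around from that of the GFP- libraries. Their microglial markers summed to 76.2 CPM, against 15106 CPM in naive microglia. Bhlhe41 was at 68.1 CPM in astrocytes and 89.9 CPM in the neuron-labelled library, near its level in naive microglia, and Mef2a at 89.1 and 76.4 CPM. The neuron-labelled library held Sall1 at 30.4 and Sall3 at 2.15 CPM. Irf8 was at 1.04 and 0.269 CPM, Spi1 at 0.416 CPM and 0 UMIs, and Runx1 at 2.91 CPM and 0 UMIs in these libraries, and a count of 0 allows up to 0.807 CPM in the neuron-labelled library. In order of level, Sall1 ran from naive microglia and the GFP- libraries to the neuron-labelled library (25.1 to 36.6 CPM, exact interval), astrocytes (21.3 to 30.5) and the GFP+ library of ICV-F (20.9 to 27.5), then the other GFP+ libraries and blood. Naive microglia and the highest GFP- library did not differ beyond counting error, and neither did astrocytes from the libraries next to them.

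Of 22 relatives of the 9 factors, 19 were tested between the sorts, with 4 higher and 2 lower in GFP+, where 32.5% of all genes were called, and a median log2 fold change of 0.03, against 0.01 over all genes. That share is near the background and is no result about these relatives as a group. Runx3, a RUNX factor of lymphocytes and some macrophages, rose by 1.79 (SE 0.489, adjusted p = 0.0226) and Bhlhe40, the nearest relative of Bhlhe41, by 1.98 (SE 0.597, adjusted p = 0.0319), while Bhlhe41 itself had a negative value. Irf7, a factor of the interferon response, rose by 1.34 (adjusted p = 0.0294), and Irf3 fell by 0.41 (adjusted p = 0.0285). Runx2 rose and Sall2 fell at under 20 CPM in both sorts. With 1 library left out, 0 to 4 were called higher and 0 to 2 lower, and none was called without the GFP- library of IV-M, where calls over all genes fell to 2177 as well. Spic, a PU.1 relative of red pulp macrophages, was at 1.56 (adjusted p = 0.0524). All of these p-values are from edgeR.

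Of 26 other myeloid factors, 23 were tested, with 2 higher and 6 lower in GFP+ and a median of -0.06. This too is near the 32.5% called over all genes and is no result about the group. Ahr, the aryl hydrocarbon receptor, rose by 1.65 (adjusted p = 0.0218). Smad3, a mediator of TGF-beta signals, fell by 0.99 (adjusted p = 0.00387), Tal1 fell by 0.96 (adjusted p = 0.0271) and Ikzf1, the factor Ikaros, fell by 0.91 (adjusted p = 0.00106). Rxra, Fli1 and Hhex fell by 0.45, 0.39 and 0.36 (adjusted p = 0.024, 0.0371 and 0.0224). Tfec rose at under 20 CPM. Without the GFP- library of IV-M 2 of these genes were called, both lower. Of 15 homeostatic microglial genes, 9 fell and none rose, with a median of -0.65, where 15.9% of all genes fell. The largest falls were in Slc2a5 (-3.68), Selplg (-1.71), Sparc (-1.54), P2ry12 (-1.53), Tmem119 (-1.37) and Gpr34 (-0.94), with adjusted p of 0.000613 to 0.00508. Between 7 and 12 of the 15 were called lower when 1 library was left out. All of these p-values are from edgeR.

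Patterns over the 8 treated libraries are given by Pearson's r of log2(TMM CPM + 1) among 5933 genes with a mean of at least 20 CPM. The genes most like Sall1 were Slc2a5 (0.996), Orai2 (0.995) and Creb3l2 (0.995), and those most like Sall3 were Upk1b (0.989), Klk8 (0.987) and Slc1a3 (0.985). For Mef2a they were Gpr107, Frmd4b and Pik3r1 (0.989 to 0.991), for Mef2c Camsap2, Dmxl1 and Tjp1 (0.951 to 0.981) and for Maf Serinc1, Wbp2 and Sgpl1 (0.952 to 0.960). For Spi1 they were Eef2, Ccdc9 and Alyref (0.988 to 0.991) and for Runx1 Pfkfb3, Mgat4a and Tcf12 (0.984 to 0.989). Kctd12 led the lists of both Bhlhe41 (0.997) and Irf8 (0.9749), followed by Usp10 and Vps18 for Bhlhe41 (0.981 and 0.979) and by Bhlhe41 itself and Hs2st1 for Irf8 (both 0.969). The 8 libraries fall into sorts, and they share depth and scaling, so these values describe the libraries and carry no test.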

How the data were processed

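Droplet-based 3′ single-cell RNA libraries (10x Genomics) were analysed. The authors deposited counts, which are whole numbers of UMIs per gene and cell barcode that Cell Ranger 3.1.0 made (file headers) on mm10 (the submitters' processing notes), without normalization. From these, UMIs were summed per library over the kept barcodes, 987965 to 16514669 per library. Doublets were not removed here. The 9 genes, the other gene lists and the tests were chosen with earlier results of these data known.

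Sorts, routes and sexes were compared by quasi-likelihood F tests in edgeR 4.0.16 (R 4.3.3) with TMM, filterByExpr and Benjamini-Hochberg adjustment over all genes, at an adjusted p under 0.05. The route, interaction and sex contrasts were fitted on all 8 treated libraries. Tested on simulated data, the comparison of the sorts recovered 68% of 2-fold and 98% of 4-fold changes. Recovery was 25% and 86% for routes within GFP+, 15% and 81% for routes within GFP-, and 2% and 53% for the interaction. For sexes it was 20% and 88% within GFP+ and 23% and 90% within GFP-. The simulation used 1 estimate of the spread, that of the sort comparison. In the data, 0 genes were called higher in females within GFP-. Yet Xist was at 2739 and 3792 CPM in Sall1-negative GFP- cells of ICV-F and IV-F. It was at 170 and 31.0 CPM in those of ICV-M and IV-M. The absence of a call in these comparisons thus leaves room for 2-fold changes and for larger ones. Shares were taken after drawing 500 or 1000 UMIs per cell (seed 1). A share or level of 0 is given with the value that 3 counts would have. All intervals of levels and shares are exact, at 95%, and cover counting error only. The libraries of 1 number come from 1 mouse, so the mouse pairs them, and the correlations of their deviations from the group means were 0.255, -0.267, -0.325 and 0.0482. Alternatives were other barcode filters, DESeq2 1.42.0, upper-quartile scaling, library totals, no filter on low counts, the mouse as a block, route or sex as a covariate, thinned cells, 1 route or sort alone, and each library left out. Named genes outside the 9 are called genes of the lists with at least 20 CPM in the higher sort, up to 6 per list and direction, and the 3 genes most like each of the 9. P2ry12, Sparc, Slc2a5 and Ms4a7 in the Sall1-positive cells and the relative Spic were named after their values were seen.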

Additional observations from a re-analysis of the deposited data

Results flagged for a closer look

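Sall3 in the GFP+ library of IV-F lay far from the other 3 GFP+ libraries, at 2.85 CPM and in 0.239% of cells at 500 UMIs per cell. No other gene of the 9 had such a library in either sort, among 36 groups of 4 libraries looked at (9 genes, 2 sorts, levels and shares), where chance gives about 1 in 20. The 2 flags are about what that rate gives, and both come from the same gene and library. The share was 0 in the other 3 GFP+ libraries, so any share above 0 would have stood apart. Of the 21 cells of this library with a Sall3 UMI, 13 held an Xist UMI, 3 a Y-linked UMI, with both kinds in some, and 7 neither.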

How the results depend on the processing

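Between the sorts, Sall1 was called lower under all 23 alternatives (log2 fold change -4.57 to -3.16) and Sall3 under all 22 that gave it an adjusted p (-8.72 to -5.26), since DESeq2 gave none. Mef2a was called under 11 of 23 and Bhlhe41 under 8. Genes called fell from 3820 to 1263 in thinned cells and 1031 in i.c.v.-dosed mice alone. The 9 genes gave 5 calls, 4 lower and 1 higher in GFP+, under the stricter barcode filter and in cells with at least 1000 UMIs. Of all genes, 34.4% and 35.2% were called there. With library totals the 9 genes gave 6 calls, all lower, where 38.8% of all genes were called. With 1 library left out, 2177 (without the GFP- library of IV-M) to 3791 genes and 2 to 3 of the 9 were called.

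Values turned sign for Maf with library totals (-0.23), in i.v.-dosed mice alone (-0.10) and without GFP+ of ICV-M or GFP- of IV-F (-0.047 and -0.017), for Spi1 (-0.13) and Mef2c (0.10) in thinned cells, for Mef2c in i.c.v.-dosed mice (0.080), and in cells under 1000 UMIs for Spi1 (-0.83), Mef2a (0.34), Irf8 (0.16), Mef2c (0.48) and Runx1 (0.40). The cause was not tested.

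Between routes within GFP+, DESeq2 called 526 genes and 1 of the 9 (Sall1), no filter on low counts 679 and 2 (Sall1 and Sall3), sex as a covariate 1 of the 9 (Bhlhe41), and leaving out 1 library 42 (without GFP+ of ICV-F) to 293 genes and 0 to 1 of the 9 (Sall3 at 4.21, adjusted p = 0.0225 by edgeR, without GFP+ of IV-M). Sall3 turned to -0.42 without GFP+ of IV-F. Within GFP-, DESeq2 called 71 genes, no filter 83, that sort alone 4 and leaving out 1 library 0 to 23. Mef2c turned to -0.0014 with the stricter filter, and with 1 library left out 6 of the 9 genes turned sign, with ranges of -0.397 to 0.0643 (Bhlhe41), -0.245 to 0.106 (Maf), -0.226 to 0.0129 (Irf8) and -0.335 to 0.0200 (Runx1), each positive without GFP- of IV-F, -0.0045 to 0.169 (Mef2a) and -0.0775 to 0.520 (Sall3).

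For the dependence on route, DESeq2 called 598 genes and 1 of the 9 (Sall1), no filter 698, the stricter filter 142, the mouse as a block 678, and leaving out 1 library 41 to 239 genes and 0 to 1 of the 9. Sall3 ranged from -0.62 (without GFP+ of IV-F) to 4.01 (without GFP+ of IV-M, adjusted p = 0.0418 by edgeR). The block changed no other call of the 9 than that of Bhlhe41 between the sorts. Between sexes DESeq2 called 3 and 7 genes.

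The number of genes whose shares did not overlap rose from 3 to 5 under the stricter filter, 7 at 1000 UMIs and 6 at each cell's own depth. It was 3 to 5 with 1 library left out. At own depth the directions were mixed, with Sall1 and Sall3 lower and Maf, Irf8, Spi1 and Runx1 higher in GFP+. Of all genes, 12.3% were separate and lower in GFP+ at 500 UMIs and 23.4% at 1000 UMIs. For the other settings that share was not computed, so their counts are no result about the 9 genes. Differences in percentage points turned sign for Spi1 at 1000 UMIs (2.04) and under the stricter filter (0.187). At own depth they were positive for Mef2a (7.12), Mef2c (10.9), Maf (10.5), Irf8 (8.71), Spi1 (13.9), Runx1 (7.84) and Bhlhe41 (0.634). With 1 library left out they ranged from -3.44 to 0.928 for Mef2c, -1.86 to 1.39 for Maf and -4.40 to 0.356 for Runx1, each positive without GFP+ of IV-F. Of 72 naive levels, 26 moved beyond their counting interval. With 1 naive library each, and few Sall3 UMIs in GFP+ cells, counting limits those values.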
